A study of Drosophila melanogaster with 6 samples.

Results

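Insulin pathway genes were followed in the heads of male Drosophila melanogaster that had been kept alone or in company. A gene counted as measured where the platform annotation gave a probe set that 1 gene name and that name was among Ilp2, Ilp3, Ilp5, Ilp6, InR, chico, foxo, ImpL2, Thor and tobi. By this rule 7 of the 10 genes were found, each through 1 of the 18952 probe sets on the array, and Ilp3, Ilp6 and Thor were not analysed here. Single-housed males spent the 6 days after eclosion at 1 fly per vial and group-housed males at 10 flies per vial, all were frozen in the early evening, and the series title calls the single-housed males the more aggressive ones. Each array carried total RNA from 20 pooled heads, with 3 biological replicates per housing condition. The labels give neither a strain nor a genotype. The question put to these genes is which of them differed in head RNA with social experience.

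In the fly, insulin-like peptides are released into the circulation by a small set of neurosecretory cells in the brain, the insulin-producing cells, and they bind the insulin receptor InR on fat body, neurons and other tissues. The receptor signals through the substrate chico and the kinase Akt, which keeps the transcription factor foxo out of the nucleus. When insulin signalling is low, foxo enters the nucleus and activates genes that include InR itself. ImpL2 is a secreted protein that binds insulin-like peptides and limits their action, and tobi encodes an alpha-glucosidase whose expression is known to respond both to insulin-like peptides and to adipokinetic hormone, the hormone that mobilises stored energy.

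The signal of Ilp5 was 1.95-fold higher in single-housed heads, that of tobi was higher as well, and those of InR and chico were lower. Of the 7 genes, 5 had higher and 2 had lower mean signals in single-housed heads. None passed the threshold of adjusted p 0.05 in the limma fit over all 13138 probe sets tested, which 0.0152% of probe sets did. At unadjusted p 0.05, 4 were higher (Ilp2, Ilp5, ImpL2 and tobi) and 2 were lower (InR and chico), which makes 6 of 7. Of all probe sets tested 4.57% were higher and 3.67% were lower at this threshold, 8.24% in all. The groups did not overlap for 4 of the 7, and for 14.2% of all probe sets. On the deposited scale the same 4 were higher and 0 were lower, with a p of 0.0928 for InR and 0.613 for chico, and after median centring Ilp5 and tobi were higher and InR was lower. With 1 array left out, 2 of the 6 genes stayed at unadjusted p 0.05 without single-housed replicate 2, single-housed replicate 3 or group-housed replicate 1, and 5 when single-housed replicate 1 or, in its place, group-housed replicate 2 was missing. Without group-housed replicate 3, 4 of the 6 stayed and foxo was added. Ilp5 and InR stayed at unadjusted p 0.05 whichever array was left out. The genes were picked with earlier results of these arrays known, so these shares describe them and are no independent test.

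**Figure D1:**
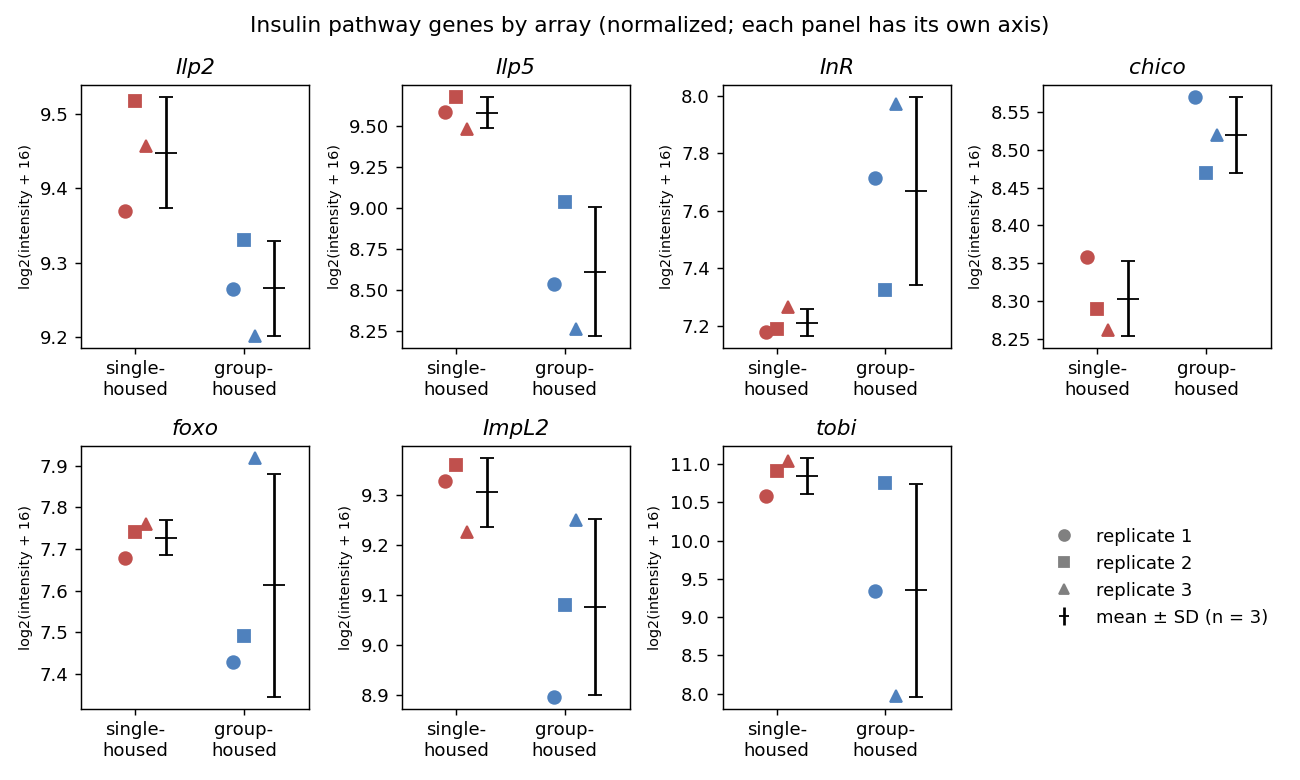
Normalized log2(intensity + 16) of the 7 measured insulin pathway genes on each array, single-housed males on the left and group-housed males on the right of each panel, with the mean and SD of 3 arrays as black bars. Each panel has its own vertical axis. Ilp2 and Ilp5 lie higher and InR and chico lower on all 3 single-housed arrays than on any group-housed array, while foxo, ImpL2 and tobi overlap.

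Values are given on the scale of log2(intensity + 16) after quantile normalization, differences are those of single-housed minus group-housed males, and errors are standard errors (SE) of the limma fit with 3 arrays per group. The deposited array medians ran from 24.2 to 31.6, and all pairs of normalized arrays correlated at 0.977 to 0.989 across probe sets. On the deposited scale single-housed arrays were brighter on the whole. The median difference of all probe sets was 0.099 on that scale and -0.017 after quantile normalization, and the share of higher ones among those at unadjusted p 0.05 was 94.1% on the deposited scale, 74.9% after median centring and 55.5% after quantile normalization. Markers of the labelled tissue were clearly above the filter. The neuronal gene elav averaged 9.56 in heads of single-housed and 9.73 in heads of group-housed males, and the glial gene repo averaged 8.97 in the single-housed and 8.93 in the group-housed samples.

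Ilp5, an insulin-like peptide of the insulin-producing cells, had deposited intensities of 867.3, 901.5 and 647 on the single-housed arrays, against 355.2, 439.9 and 291.3 on the group-housed arrays. All 3 single-housed arrays were above all 3 group-housed arrays, before as well as after normalization. Normalized values were 9.58, 9.67 and 9.48 in single-housed heads, against 8.54, 9.04 and 8.27 in group-housed heads. The difference was 0.97 (SE 0.17, 95% interval 0.58 to 1.36), a 1.95-fold higher signal with an interval of 1.49 to 2.56. By p it ranked 26 of 13138 probe sets, with a limma p of 0.000369 and an adjusted p of 0.178. The exact permutation test gave 0.1, the smallest p that 3 arrays against 3 allow. The arrays measured RNA of whole heads, so the number of insulin-producing cells and the Ilp5 RNA of each cell were not measured separately. The source of the lower group-housed signal was not tested.

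With 1 array left out, the Ilp5 difference ran from 0.80 without group-housed replicate 3 to 1.18 without group-housed replicate 2. The threshold was passed in limma without group-housed replicate 2 (adjusted p 0.0166) and with the deposited scaling (adjusted p 0.00442). It was not passed when any other array was left out, and the limma adjusted p was highest without single-housed replicate 2, at 0.777.

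Ilp2 is made by the same neurosecretory cells. Its normalized values were 9.37, 9.52 and 9.46 in single-housed heads, against 9.27, 9.33 and 9.20 in group-housed heads, so the groups again did not overlap, though by a margin of only a few hundredths. The difference was 0.18 (SE 0.077, 95% interval 0.0073 to 0.36), 1.13-fold, with an adjusted p of 0.602 in limma. Among all probe sets tested, 6.23% lay wholly higher in single-housed heads, as Ilp2 and Ilp5 did, and 7.95% lay wholly lower.

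Ilp5 was set against Ilp2 within each array, where a change in the scale of the whole array largely cancels. The log2 value of Ilp5 minus that of Ilp2 was 0.21, 0.16 and 0.02 on the single-housed arrays, against -0.73, -0.29 and -0.94 on the group-housed arrays. The groups did not overlap. This within-array value averaged 0.13 ± 0.097 on the single-housed arrays, against -0.65 ± 0.33 on the group-housed ones (SD, n = 3 each), so the housing difference was 0.78 larger for Ilp5 than for Ilp2 (exact permutation p = 0.1, the smallest possible). It ran from 0.65 to 0.97 with 1 array left out. It was the only contrast between members that was run, and the absolute value has no meaning because the probes differ.

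**Figure D2:**
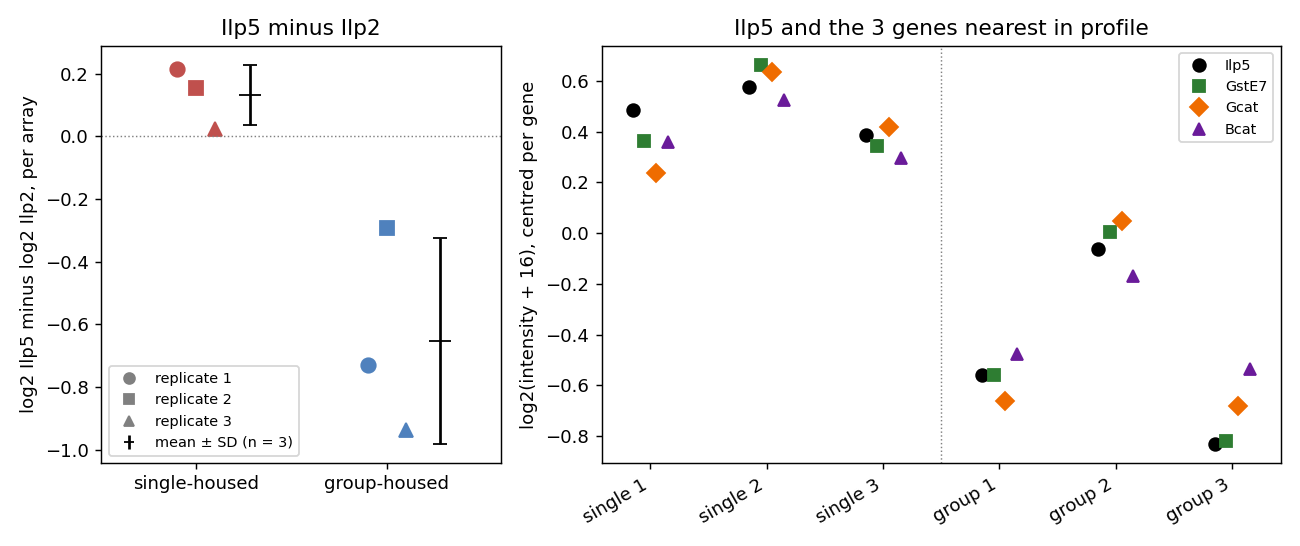
Left, log2 signal of Ilp5 minus that of Ilp2 on each array, with mean and SD of 3 arrays as black bars; the single-housed arrays lie between 0.02 and 0.21 and the group-housed arrays between -0.94 and -0.29. Right, log2(intensity + 16) of Ilp5 and of GstE7, Gcat and Bcat, each centred on its mean over the 6 arrays; in all 4 genes group-housed replicate 2 is the group-housed array nearest to the single-housed ones.

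The insulin-like peptide genes Ilp1 to Ilp5 are neighbours in the gene table, broken only by CG43897, which overlaps Ilp5. The probe set of CG43897 differed by -0.21 (SE 0.077), the opposite sign to Ilp5, and CG32052, which overlaps Ilp2, by -0.07 (SE 0.080). The higher signals of the peptide genes were thus not seen in the genes they overlap. Of the remaining insulin-like peptides, Ilp7 and Ilp8 were below the filter on dim probe sets, where the filter stood at 4.69. Ilp7 averaged 4.64 in single-housed heads, against 4.57 in group-housed heads, and Ilp8 averaged 4.46 in single-housed heads, against 4.67 in group-housed heads.

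InR, the receptor tyrosine kinase of the pathway, went the other way from its ligands. Normalized values were 7.18, 7.19 and 7.26 in single-housed heads, against 7.71, 7.32 and 7.97 in group-housed heads. The single-housed arrays lay within 0.084 of each other and below every group-housed array. The difference was -0.46 (SE 0.15, 95% interval -0.81 to -0.11), a 1.38-fold higher signal in group-housed heads, with a p of 0.0154 and an adjusted p of 0.499 in limma. The InR difference was -0.31 once group-housed replicate 3 was left out (adjusted p 0.733), and -0.64 once replicate 2 was left out instead (adjusted p 0.0773). As deposited, InR read 147, 139.7 and 129.1 in single-housed heads, against 190.9, 124.6 and 237.8 in group-housed heads, where group-housed replicate 2 fell below the single-housed arrays.

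The adaptor chico, the insulin receptor substrate of the fly, showed a small difference, with little spread after quantile normalization. It stood at 8.36, 8.29 and 8.26 in single-housed heads, against 8.57, 8.47 and 8.52 in group-housed heads, without overlap. Its difference of -0.22 (SE 0.078, 95% interval -0.39 to -0.039) corresponds to a 1.16-fold higher signal in group-housed heads, with an adjusted p of 0.555 in limma. Deposited intensities of chico overlapped, at 356.5, 324.7 and 269.4 in single-housed heads, against 362.3, 296.2 and 348.3 in group-housed heads. On the deposited scale, where the median difference of all probe sets was 0.099, that of chico was -0.083 (SE 0.16). After median centring it was -0.17 (SE 0.14, limma p 0.233). Relative to the median of all probe sets it was -0.20 after quantile normalization and -0.18 as deposited.

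The transcription factor gene foxo did not differ beyond its spread over all 6 arrays. Values of 7.68, 7.74 and 7.76 in single-housed heads fell inside the range of 7.43, 7.49 and 7.92 in group-housed heads. The difference was 0.11 (SE 0.13), and its 95% interval of -0.19 to 0.41 leaves room for changes of up to 1.33-fold in one direction and 1.14-fold in the other. It was 0.27 when group-housed replicate 3 was left out (limma p 0.0185, adjusted p 0.642), and 0.02 when replicate 1 was. These are RNA levels, and they carry no information on where the foxo protein was in the cell.

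ImpL2, the secreted binding protein, read 9.33, 9.36 and 9.23 in single-housed heads, against 8.90, 9.08 and 9.25 in group-housed heads. The groups overlapped through group-housed replicate 3. The difference was 0.23 (SE 0.10, 95% interval 0.00092 to 0.46, p 0.0493, adjusted p 0.606 in limma), and 0.14 without group-housed replicate 1. Its probe set carries the suffix s, which the manufacturer uses for probes that match several transcripts. The gene table lists 4 RefSeq transcripts for ImpL2, 4 for InR, 5 for foxo and 3 for chico, and with 1 probe set per gene their isoforms were not resolved.

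The glucosidase gene tobi had the widest range of the 7 genes. Deposited intensities were 1754, 2168 and 1936 in single-housed heads, against 632.9, 1476 and 237.1 in group-housed heads, and normalized values were 10.58, 10.91 and 11.04 in single-housed heads, against 9.34, 10.75 and 7.97 in group-housed heads. After normalization group-housed replicate 2 lay among the single-housed arrays, while as deposited all 3 group-housed arrays lay below them. The difference was 1.49 (SE 0.56), a 2.81-fold higher signal in single-housed heads with a 95% interval of 1.17 to 6.76. The exact permutation p was 0.2, and limma gave a p of 0.0258 and an adjusted p of 0.561. With a robust variance model in limma the difference was the same, but the SE rose to 0.80 and the p to 0.130. The tobi difference was 0.80 when group-housed replicate 3 was left out (adjusted p 0.735), and 2.19 when replicate 2 was (adjusted p 0.0572).

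**Figure D3:**
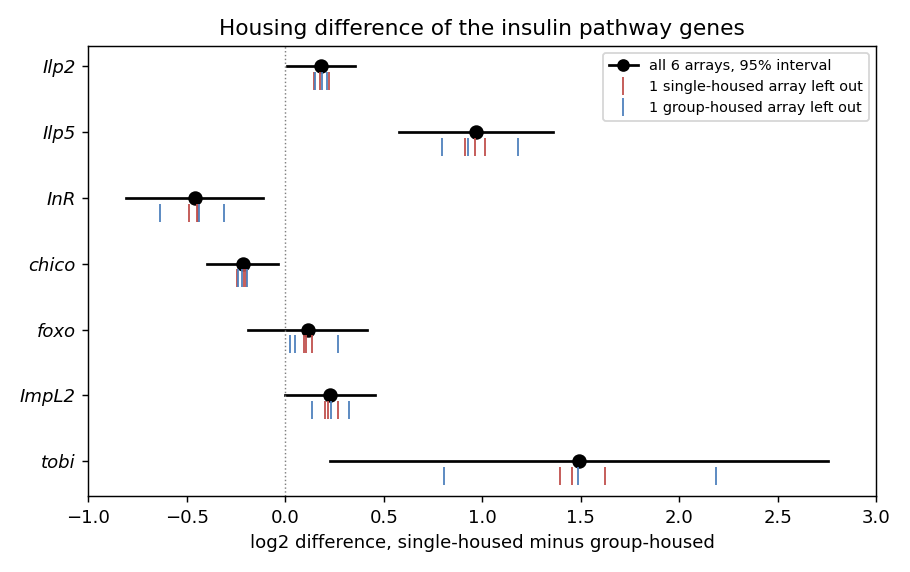
Log2 difference, single-housed minus group-housed, of each measured insulin pathway gene with its 95% interval from the limma fit (black), and the same difference with 1 array left out (red ticks, single-housed; blue ticks, group-housed). The intervals of all genes but foxo exclude 0 before adjustment, and the ticks spread most for tobi, from 0.80 to 2.19.

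Spread within a group differed between the conditions for several of these genes. The SD of Ilp5 was 0.096 over the single-housed arrays, against 0.39 over the group-housed ones. For InR it was 0.046 over single-housed and 0.33 over group-housed arrays, for foxo 0.042 over single-housed and 0.27 over group-housed arrays, and for tobi 0.24 over single-housed and 1.39 over group-housed arrays. In these 4 of 7 genes the SD was at least 3 times larger in group-housed heads, as it was for 13.6% of all probe sets tested, while 7.73% had an SD at least 3 times larger in single-housed heads. Ilp2 and chico had nearly equal SDs in both conditions. The fit uses 1 spread per probe set for both groups, and the SDs rest on 3 arrays each.

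The group-housed arrays kept a common order across some of these genes. From high to low, Ilp2, Ilp5 and tobi ran through group-housed replicates 2, 1 and 3, and InR ran through 3, 1 and 2, the reverse. Group-housed replicate 2 was thus the group-housed array nearest to the single-housed ones for Ilp5, InR and tobi. Both orders were common on these arrays, at 17.9% and 19.1% of all probe sets tested. The remaining members ran otherwise, foxo and ImpL2 through 3, 2 and 1, and chico through 1, 3 and 2. Those orders held for 17.0% and 13.6% of all probe sets tested. Genes of the fat body, the adipose and liver-like tissue that is also present in the head, took the order of Ilp5 and tobi in part. Of the 6 tested markers, Lsp2, fit and plin1 ran through group-housed replicates 2, 1 and 3, Obp99b and Mtp through 2, 3 and 1, and apolpp through 3, 2 and 1. The summed intensity of the 7 fat body markers with a probe set, of 8 listed, was 25299, 27062 and 27370 in single-housed heads, against 15902, 21971 and 14599 in group-housed heads. Of the 6 markers tested 4 were higher at unadjusted p 0.05, where 5.21% of all genes tested were higher and 4.02% lower, and none was lower. The larval storage protein gene Lsp2 was at 12.75, 12.81 and 12.80 in single-housed heads, against 11.64, 12.57 and 9.25 in group-housed heads. The peptide gene fit was at 11.06, 11.22 and 11.27 in single-housed heads, against 9.87, 10.55 and 8.97 in group-housed heads. The fat body expresses tobi and ImpL2 as well. Among the group-housed arrays ImpL2 was highest on replicate 3, at 9.25, where the fat body sum was lowest. The part of fat body content in the differences of the insulin pathway genes was not tested.

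**Figure D4:**
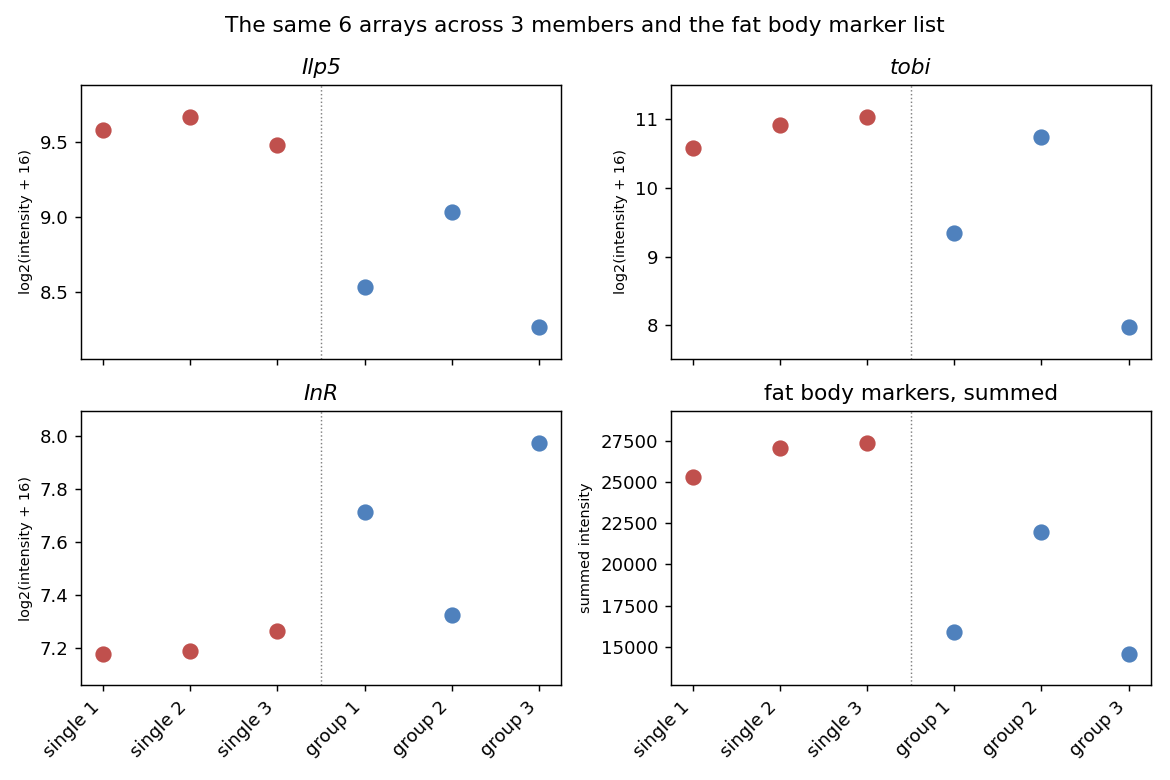
Log2(intensity + 16) of Ilp5, tobi and InR, and the summed intensity of 7 fat body markers, on the same 6 arrays, with single-housed arrays in red on the left and group-housed arrays in blue on the right. Group-housed replicate 2 is the group-housed array closest to the single-housed arrays in all 4 panels, and group-housed replicate 3 is the farthest.

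Digestive protease genes also varied between the arrays. The summed intensity of 10 gut markers with a probe set, of 13 listed, was 888, 2926 and 1846 in single-housed heads, against 1181, 166 and 224 in group-housed heads, and 4 of the 9 tested were higher at unadjusted p 0.05. The gut also expresses tobi, and the part of gut RNA was not tested. The median difference of the tested gut markers was 1.17, the same direction as that of tobi. Within the group-housed arrays the gut sum was lowest on replicate 2, the one with the most tobi signal. The marker dimm of neurosecretory cells lay below the filter, at 4.45 in single-housed heads, against 4.58 in group-housed heads. The summed neuronal markers ran from 3397 to 3923 on the single-housed arrays, and from 3836 to 4699 on the group-housed ones, and 1 of 7 tested, the synapsin gene Syn, was lower at unadjusted p 0.05. Of 5 glial markers tested 0 were at unadjusted p 0.05, with a median difference of 0.09, and of 5 hemocyte markers 2 were higher, with a median of 0.17.

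The genes whose 6 array values most resembled those of Ilp5 were sought among 5894 named genes, by the root mean square difference of their centred log2 values. The nearest was GstE7, a glutathione S-transferase gene, with a difference of 0.070, then Gcat at 0.14 and Bcat, a branched-chain amino acid aminotransferase gene, at 0.15. GstE7 read 9.35, 9.65 and 9.33 in single-housed heads, against 8.43, 8.995 and 8.17 in group-housed heads. For InR the nearest were shd, a hydroxylase gene that acts on ecdysone, at 0.096, BomT2 at 0.10 and wisp at 0.10. Of these, shd and wisp are dim. A likeness over 6 arrays is a description of these arrays. Among the members themselves foxo and ImpL2 were nearest to each other, at 0.11, and InR and tobi were farthest apart, at 1.40.

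The rest of the pathway held a share of low p-values close to that of the whole array. Lists of 93 further genes held 67 with a probe set and 62 tested. None of the 62 passed adjusted p 0.05 in limma, as 0.0104% of genes tested did. At unadjusted p 0.05, 3 were higher and 2 were lower, 8.06% in all, beside 9.23% of all 9604 genes tested. Among the 5 tested genes of adipokinetic hormone and sugar sensing, 2 were higher and 1 was lower. Among the 17 tested around the growth kinase TOR, 1 was higher and 1 was lower. The other pathway lists held 0. The median difference of the 62 was -0.06, that of all genes -0.02 and that of the 7 insulin pathway genes 0.18.

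Receptors and binding proteins other than InR and ImpL2 lay near 0. Sdr, a secreted decoy form of the insulin receptor, was at 0.07 (SE 0.091) and Lgr3, the receptor of Ilp8, at 0.14 (SE 0.15). The receptor tyrosine kinase gene Alk was at -0.04 (SE 0.16). Of the 8 genes tested in the branch from phosphoinositide kinase to Akt, 0 were at unadjusted p 0.05, and differences ran from -0.16 for the kinase gene Pdk1 to 0.15 for melt. Akt itself was at 0.00 (SE 0.15). The 4 genes tested of the Ras branch, drk, Sos, Dsor1 and aop, ran from -0.11 to 0.03, with 0 at unadjusted p 0.05.

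In the branch around the growth kinase TOR 17 genes were tested. The stress-induced TOR inhibitor scyl was at 0.24 (SE 0.084, adjusted p 0.524 in limma), and the transcription factor gene REPTOR-BP, which acts when TOR is inactive, at -0.27 (SE 0.11, adjusted p 0.597). These were the only ones of the 17 at unadjusted p 0.05. S6k, the kinase that TOR activates, was at 0.15 (SE 0.082), and raptor, a subunit of the TOR complex, at -0.37 (SE 0.21). Tsc1 and gig, which together restrain TOR, were at 0.00 and -0.02.

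Of 6 tested genes reported as targets of foxo, 1 lay above 0 and 0 were at unadjusted p 0.05. The lipase gene bmm was at -0.26 (SE 0.15), Atg8a of autophagy at -0.12 (SE 0.069), Atg1 at -0.15 (SE 0.089) and the stress-response gene Sesn at 0.14 (SE 0.081). Their median was -0.13. InR, which is a foxo target too, was larger in size than any of them at -0.46.

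The 19 tested genes that act on the insulin-producing cells, such as peptides, amine receptors and fat body signals, also held 0 at unadjusted p 0.05. CCHa2, a peptide of the gut and fat body that stimulates insulin-like peptide release, was at 0.44 (SE 0.20, adjusted p 0.618 in limma). The gene sun was at -0.45 (SE 0.25), and the neuropeptide gene sNPF at -0.08 (SE 0.11). The median of the 19 was -0.08.

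Genes of adipokinetic hormone and sugar sensing, the other input to tobi, held 2 higher and 1 lower at unadjusted p 0.05 among 5 tested. The hormone gene Akh read 9.91, 9.73 and 9.68 in single-housed heads, against 9.10, 9.35 and 9.11 in group-housed heads, without overlap, a difference of 0.59 (SE 0.098, adjusted p 0.158 in limma). Its receptor gene AkhR was at 0.35 (SE 0.12) and bigmax, a partner of the sugar sensor Mondo, at -0.26 (SE 0.084), with adjusted p of 0.516 and 0.499. Mondo was at -0.06 (SE 0.10) and the sugar-responsive factor gene sug at 0.32 (SE 0.20).

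**Figure D5:**
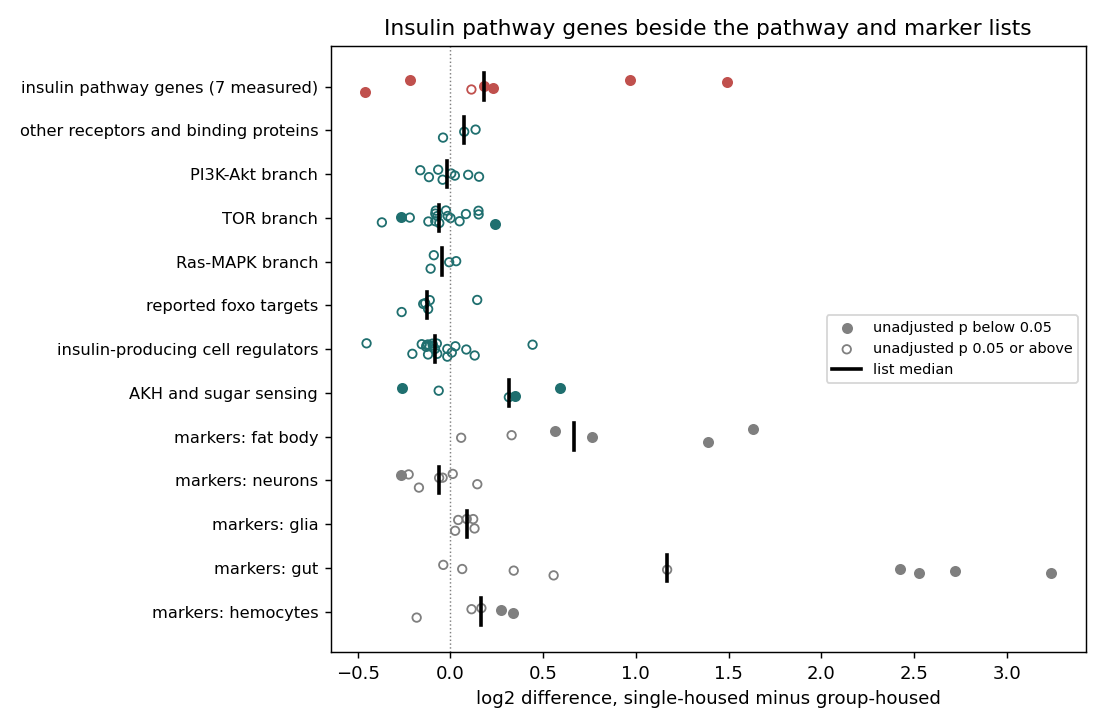
Log2 difference, single-housed minus group-housed, of the 7 measured insulin pathway genes (red), of the tested genes of 7 pathway lists (green) and of 5 marker lists (grey), 1 point per gene, filled where the unadjusted p is below 0.05, with the list median as a black bar. Medians lie between -0.13 and 0.07 for the pathway lists except that of adipokinetic hormone and sugar sensing at 0.32, while those of the fat body and gut markers are 0.66 and 1.17.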

How the data were processed

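Head RNA from 6 pools was labelled with biotin by the standard Affymetrix protocol, per the labels. The authors deposited linear probe set intensities. How probes were summarised, background-corrected and scaled is not given in the sources used here. Of 18952 probe sets 183 controls were left out, and 13647 of the rest had 1 gene name, 402 several and 4720 none. By gene ID 13544 matched a RefSeq gene table (Release 6 plus ISO1 MT). An intensity has no count behind it, and the number of arrays limits the precision.

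Values were log2(intensity + 16), quantile normalized, without the dimmest 30% of probe sets, and fitted with limma 3.58.1 in R 4.3.3 (intensity trend, Benjamini-Hochberg over 13138 probe sets, 2-sided). The script was tested on simulated data. List genes entered through their brightest probe set. Genes were named by rule: all members, up to 4 per pathway list by p, and the 3 nearest in profile to Ilp5 and InR; marker, overlapping and further list genes were chosen after their values were seen. Members and lists were chosen with earlier results of these data known. Contrasts that need Ilp3 or Thor, and a promoter motif count, were not run.

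Alternatives covered scaling, pseudocount (1 and 64), filter (none and 50%), variance model (statmod 1.5.0), array weights, a replicate block and each array left out.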

Additional observations from a re-analysis of the deposited data

How the results depend on the processing

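All 7 insulin pathway genes kept the sign of their difference in each of the 16 alternatives. Ilp5 passed adjusted p 0.05 in limma in 3 of them, with values of 1.12 with the deposited scaling, 1.18 without group-housed replicate 2 and 0.97 with the replicate number as a block (adjusted p 0.0283), and its adjusted p ran from 0.00442 to 0.777. The other 6 genes passed in 0. Ilp5 minus Ilp2 kept its sign in 11 of 11 alternatives. Under the replicate block it was 0.78, with an exact paired p of 0.25, the smallest that 3 pairs allow. The number of members at unadjusted p 0.05 ran from 2 to 6. The count of all probe sets past adjusted p 0.05, 2 in the reported fit, was 78 with the deposited scaling, 11 with median centring, 1 with a pseudocount of 64, with no filter or with a 50% filter, 0 in a fit with no intensity trend (985 at unadjusted p 0.05), 5 with array weights, 32 with the replicate block, and 0 to 47 with 1 array left out, the ends being reached when single-housed replicate 3 (1045 at unadjusted p 0.05) or group-housed replicate 2 (1351) was missing. The cause of these changes was not tested. Same-numbered arrays deviated together at correlations of 0.032, 0.11 and 0.33. The highest correlation of each single-housed array with a group-housed array of another number was 0.12, 0.16 and -0.16. The same number was thus closest for replicate 3 only. These values do not settle whether the numbers pair the samples, and the reported fit did not pair them. The mean signals of the 7 genes all lay above the filter.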
